A study of Mus musculus with 8 samples.

Results

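The replication-dependent histone genes were taken as the rows of the gene table whose symbols are H1f followed by a number from 1 to 5, or H2ac, H2bc, H3c or H4c followed by a number. The rule found 55 of the 11911 genes listed, namely 5 of the linker histone H1, 16 of H2A, 13 of H2B, 11 of H3 and 10 of H4. The mouse annotation used here (GENCODE vM39) holds 67 protein-coding genes with such names, and the other 12 were not analysed here. The table came from bulk RNA-seq of 8 libraries of iTregs, regulatory T cells induced in culture from naïve CD4+ T cells of the mouse spleen, made from total RNA after removal of ribosomal RNA. The 4 libraries labelled WT came from Foxp3YFP-Cre mice and the 4 labelled KO from Tdrd3fl/fl/Foxp3YFP-Cre mice. Cells of both groups had been held for 36 hours with TGF-β and the hamster antibodies anti-CD3 and anti-CD28 while anti-IL-4 and anti-IFNγ were present. Cre was driven by Foxp3 in both groups, so the floxed Tdrd3 gene can be deleted only in cells that have transcribed Foxp3, and no sort for YFP is described ahead of the RNA step. The age of the mice is not given for this experiment in the sources used here, and the methods speak of 3 mice a group where the labels give 4 libraries. Libraries are named by their labels, WT1 to WT4 and KO1 to KO4. Tdrd3 itself had 18.8, 15.1, 9.95 and 17.7 normalized CPM (defined below) in WT1 to WT4 and 13.7, 10.7, 12.9 and 11.1 in KO1 to KO4, so the library labelled WT3 went against its label (log2 fold change −0.35, edgeR adjusted p 0.496). In bulk RNA, fewer cells that make histone RNA and less histone RNA per cell cannot be told apart.

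Histones are the proteins around which DNA is wound, and the replication-dependent genes supply them when DNA is copied in S phase. Most of these genes have no intron, and their mRNAs end in a conserved stem-loop in place of a poly(A) tail, which the protein SLBP binds and next to which the U7 snRNP directs cleavage. Most replacement histones, such as H2A.Z and H3.3, come from separate genes with ordinary polyadenylated mRNAs and are made throughout the cell cycle. T cells activated through CD3 and CD28 enter the cell cycle, which makes this gene group of interest in such cultures.

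The stem-loop was the sequence feature that most of these genes shared, so its forms are shown first. It was searched in the genomic sequence (GRCm39) of the 150 bases after the stop codon on the gene's strand, as GGNNCTNTTNAGNNCC. It was present in 49 of the 55 genes (89.1%), in 0 of 11825 other listed genes that are not histones of either kind, and in 1 of 11 listed replacement histone genes, H2ax. Over 21656 protein-coding genes of the annotation, 0.309% held it. Each form is given below with 5 bases on either side, 5′ to 3′ on the gene's strand, and the capitals mark the 2 arms of the stem.
H1f2 (chr13:23923490-23923515, plus strand): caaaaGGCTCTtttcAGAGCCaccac
H3c3 (chr13:23929025-23929050, minus strand): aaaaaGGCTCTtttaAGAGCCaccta
H2ac20 (chr3:96127729-96127754, minus strand): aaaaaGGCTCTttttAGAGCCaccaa
H4c17 (chr13:21996294-21996319, plus strand): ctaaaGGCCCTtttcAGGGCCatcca
H4c9 (chr13:22225131-22225156, minus strand): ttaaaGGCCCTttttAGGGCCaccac
H4c2 (chr13:23941344-23941369, plus strand): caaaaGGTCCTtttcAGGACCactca
The form of H1f2 was the commonest, with 33 genes: all 5 of H1, 14 of H2A, 7 of H2B and 7 of H3, among them H3c1 and H2bc11. The form of H3c3, with another last base in the loop, was found in 6 genes, which were 3 of H2B and 3 of H3. The form of H2ac20 occurred in that gene alone. No H4 gene had any of these stems. The form of H4c17 was shared by 6 H4 genes, that of H4c9 occurred in H4c9 alone, and that of H4c2 was shared with H4c11. The match began 22 to 59 bases after the stop codon. The letters were not found in this window in H2ac22, H2bc21, H2bc23, H2bc24, H3c8 and H4c1.

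The genes lie in clusters, with 46 on chromosome 13, 7 on chromosome 3 and 2 on chromosome 11. Because many encode the same protein, their sequences are alike, and this bears on every value below. The exons of each gene were divided into runs of 31 bases (31-mers), and the share of these that lie at another place in the genome ranged from 0.3% in H1f1 to 100% in H2ac19, H2ac23, H2ac24, H2bc23 and H2bc24, with a median of 58.9%. It was over 50% in 34 of the 55 genes, with a median of 5% in H1, 45% in H4, 57.8% in H2B, 61.9% in H3 and 83% in H2A. The deposited counts were estimated by an algorithm that divides a read matching several genes among them, and such divided reads leave counts that are not whole. More than 0.01 away from a whole number were 63.2% of the histone genes' values, against 29.6% of all values in the table. The share was 75.7% in the 34 genes with over 50% of 31-mers elsewhere and 42.9% in the other 21. Some genes of little shared sequence still had non-whole counts, such as H1f4 and H2bc6. In the coordinates of the table, H2bc6 overlaps an end of H1f4 on the same strand. The longer models of GENCODE vM39 also overlap at their ends on opposite strands, H2bc6 with H4c4, H2bc3 with H3c3 and H2bc4 with H2ac6, and the sources used here do not say which models were counted or whether counting used the strand.

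**Figure D1:**
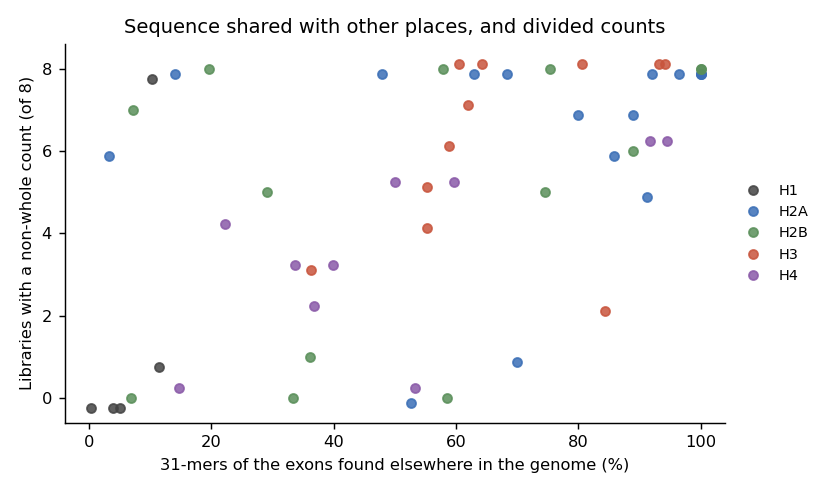
Each point is a histone gene, with the percentage of the 31-mers of its exons found elsewhere in the genome on the x axis and the number of its 8 libraries with a count more than 0.01 from a whole number on the y axis (points of different classes are shifted slightly up or down). The H1 genes sit below 12% on the x axis, and 3 of the 5 have whole counts in every library, while 9 of 16 H2A genes have non-whole counts in all 8.

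RNA counted for the replication-dependent histone genes was scarce in these libraries. Levels are given as normalized CPM, counts scaled to a common library size with edgeR's TMM factors. The 55 genes together took 0.0103% to 0.0146% of the counts of a library. The mean level of a gene over the 8 libraries ranged from 0.165 CPM in H3c14 to 10.8 in H4c9, with a median of 1.51, and each of the 55 lay below the median of all listed genes, 34.1. Only 6 genes had a mean above 5 CPM, and these were H4c9, H3c3, H2bc11, H2ac11, H2bc12 and H1f2. Per kilobase of the canonical transcript, the mean level ranged from 0.0906 CPM per kb in H3c14 to 17.9 in H2bc11, with a median of 1.74. The median per class was 1.48 in H1, 1.94 in H2A, 0.884 in H2B, 3.26 in H3 and 1.73 in H4. H2B was thus lowest and H3 highest on this scale, and the range of genes within each class took in every class median. This order depends on the canonical lengths, which reach 3538 bases in H2bc6 and 2620 in H2bc21. Per kilobase of coding sequence H2B was not lowest. There the middle H2B gene, H2bc8, had 3.36 CPM per kb and the middle H1 gene, H1f3, had 3.0.

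Replacement histones were much more abundant per length. H2az1, which encodes H2A.Z, had 371 CPM per kb, and H3f3b, which encodes H3.3, had 292. Macroh2a1, which encodes a macroH2A, had 165, and Cenpa, the H3 variant of centromeres, had 145. H2ax, the H2A variant phosphorylated at DNA breaks, had 119. Of the 11 listed replacement histones, H1f10 at 11.7 and Macroh2a2 at 0.515 alone lay below 17.9, the highest level of a replication-dependent gene. Summed per kilobase within a class and library, the replacement genes exceeded the replication-dependent genes 7.33 to 13.1 times in H1, 11.2 to 15.3 times in H2A and 6.96 to 10.8 times in H3. Counted per kilobase of coding sequence, the factors were 11.4 to 19.1, 22.6 to 29.8 and 29.5 to 44.9. Both H3 factors took H3f3a and H3f3b as the replacement genes and left out Cenpa. Both H2A factors counted H2ax, which has the stem-loop, as a replacement gene. The 10 genes with at most 15% of their 31-mers elsewhere were low too, at 0.231 to 3.38 CPM per kb. Some of them have long canonical transcripts, and per kilobase of coding sequence they ran from 1.46 in H2ac6 to 8.3 in H4c4. Removal of ribosomal RNA does not by itself discard RNA without a poly(A) tail, and what in the RNA, the library preparation or the counting set these low levels was not tested.

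**Figure D2:**
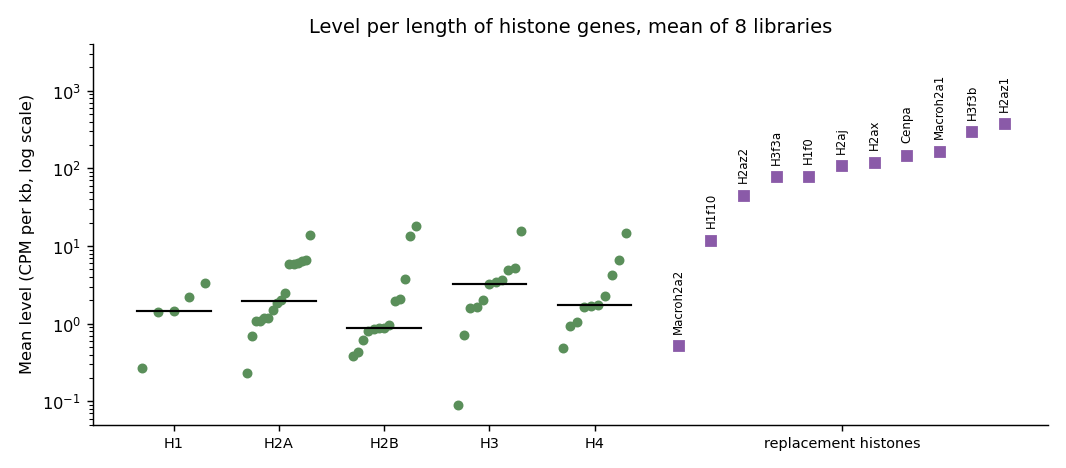
Mean level over the 8 libraries in CPM per kilobase of canonical transcript, on a log scale, for each replication-dependent gene by class (circles, with a line at the class median) and for 11 replacement histones (squares). The replication-dependent genes reach 17.9, and 9 of the 11 replacement histones lie above that.

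Between genotypes the summed histone RNA overlapped in every class. The sum over all 55 genes was 113, 123, 146 and 107 CPM in WT1 to WT4 and 103, 125, 127 and 114 in KO1 to KO4. The library labelled WT3 was the highest and KO1 the lowest, and the other 6 libraries were interleaved. The mean was 122 ± 17.1 (SD, n = 4) in WT and 117 ± 11.1 (SD, n = 4) in KO, a ratio of 0.961 or a log2 ratio of −0.06. These sums rest on 1417 to 2080 counts a library, whose counting error alone is 2.19% to 2.66%, while the SD between libraries was 14.0% of the mean in WT and 9.51% in KO. No test was run on sums, since the genes were chosen with results of these data known. How reads were divided among the listed genes of a class does not alter its sum, but reads given to genes outside the table, such as H2bc22 and H4c12, are not in it. Division between overlapping genes of different classes, such as H1f4 and H2bc6, can move the sums of both classes, though not the sum over all listed genes.

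H1, the linker histone, summed to 11.9, 9.97, 16.1 and 11.2 CPM in WT1 to WT4 and to 10.2, 14.4, 13.1 and 15.1 in KO1 to KO4. It was the only class with the higher mean in KO, 13.2 ± 2.20 against 12.3 ± 2.64 (SD, n = 4 each), and the difference was smaller than either SD. H2A summed to 30.7, 30.1, 39.0 and 28.3 in WT and to 30, 33.5, 31.7 and 29.2 in KO. Its partner in the nucleosome, H2B, summed to 27.0, 28.2, 33.2 and 26.8 in WT and to 23.6, 26.9, 32.1 and 25.4 in KO. The log2 ratio of KO to WT means was −0.04 for H2A and −0.09 for H2B, and the groups overlapped in both, although KO1 and KO4 lay below every WT library in H2B. H3 summed to 21.6, 30.5, 31.5 and 22.1 in WT and to 20.9, 28.3, 25.6 and 24.0 in KO, a log2 ratio of −0.10. H4, its partner, summed to 21.4, 24.1, 25.9 and 18.7 in WT and to 18.2, 22.4, 24.2 and 20.4 in KO, a log2 ratio of −0.08. In H3 the WT libraries split, with WT2 and WT3 above every KO library and WT1 and WT4 among them.

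The library labelled WT3 was highest in all 5 classes and was the highest library in 14 of the 55 genes. The same library had 23.7 CPM over 3 listed CD8 T cell markers, against 9.03 to 11.9 in the other 7 libraries, most of the excess in Cd8a at 11.3 CPM. It also had 9.95 CPM of Tdrd3, less than any KO library. The part of this library in the sums can be stated directly: without it the log2 ratio of KO to WT over all 55 genes was 0.04 in place of −0.06, that of H1 was 0.26 and that of H2A 0.07, and H2B and H4 came to −0.02 and −0.01.

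**Figure D3:**
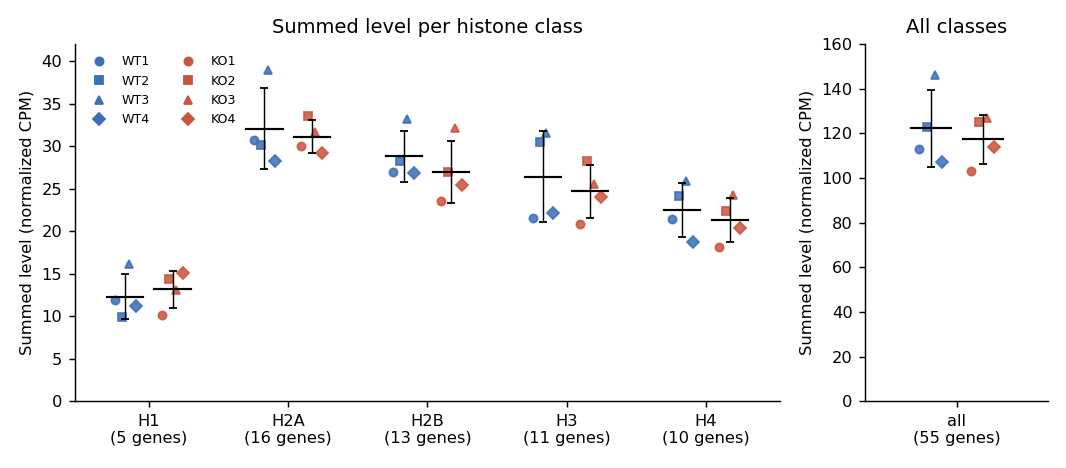
Summed level in normalized CPM of each histone class (left) and of all 55 genes (right) in WT libraries (blue) and KO libraries (red), with a marker shape for each replicate number, and the mean and SD of 4 libraries as lines and bars. The groups overlap in every class, and the triangle of WT3 is the highest point of each.

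Gene by gene, 43 of the 55 had enough counts to be tested, 5 of H1, 11 of H2A, 10 of H2B, 10 of H3 and 7 of H4. None passed an adjusted p of 0.05 in the quasi-likelihood test of edgeR (Benjamini-Hochberg over 11317 genes), where 0.265% of all tested genes did. DESeq2, with 0.716% of all tested genes called, and limma voom, with 0.239%, also called 0, although DESeq2 gave H4c17 no adjusted p. At an unadjusted p below 0.05 there were 3 of 43 (6.98%), all lower in KO, against 9.3% of all tested genes in either direction, made up of 4.91% in that direction and 4.38% in the other. At this level DESeq2 gave 3 against a background of 8.28%, and limma voom gave 4 against 9.16%. The limma voom genes included H2ac18, which was higher in KO (log2 fold change 2.25, unadjusted p 0.028 in limma voom). A log2 fold change below 0 was found in 23 of 43 (53.5%), against 49.4% of all tested genes, and the median log2 fold change was −0.05 against 0 over all tested genes. Thus the shares of the histone genes were near the background. By class, 1 of 5 in H1, 8 of 11 in H2A, 6 of 10 in H2B, 4 of 10 in H3 and 4 of 7 in H4 lay below 0. Among 2671 tested genes of like abundance, with a mean of 9.38 to 155 counts, 8.12% had an unadjusted p below 0.05. The standard errors of the 43 log2 fold changes ran from 0.133 in H4c9 to 0.699 in H2ac18, so smaller differences in the low genes were not detectable at this depth.

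**Figure D4:**
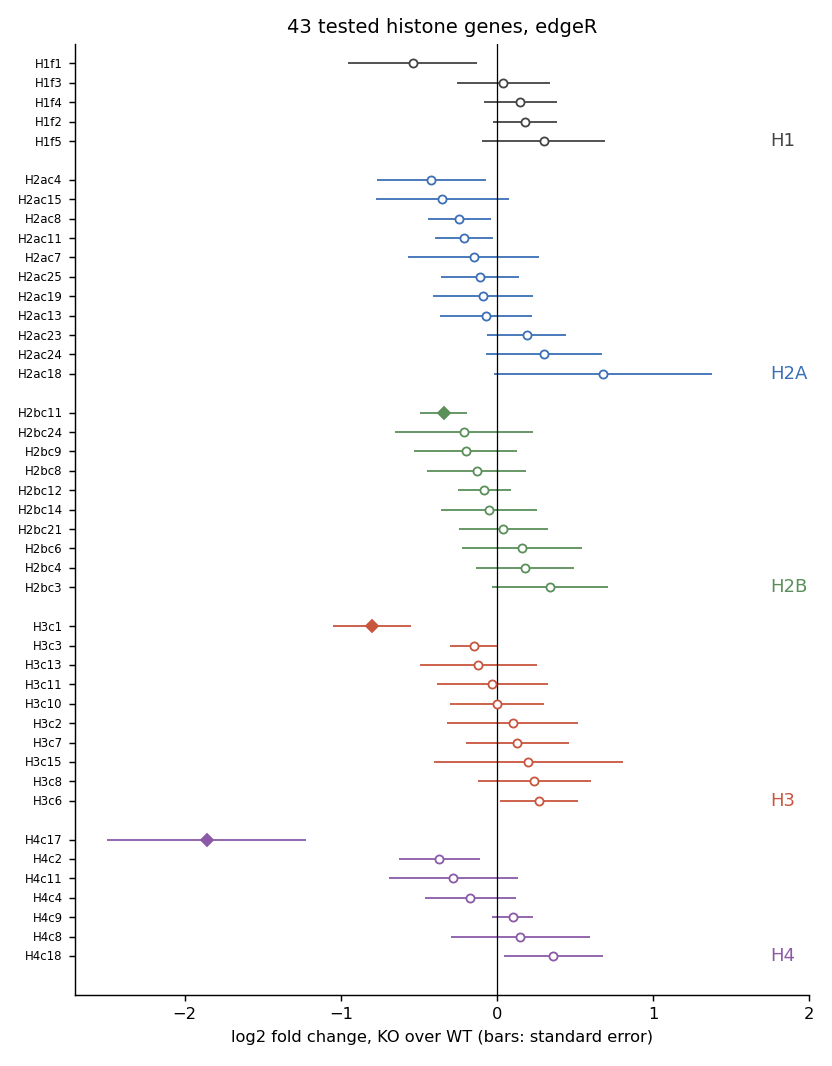
log2 fold change of KO over WT for the 43 tested histone genes by class, with the standard error of the edgeR fit as bars and filled diamonds for an unadjusted p below 0.05. The 3 diamonds are H2bc11, H3c1 and H4c17, all below 0, and the other genes lie on both sides of 0 with bars that in most of them cross it.

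H3c1 had the smallest p of the group. H3c1 (ENSMUSG00000069265) has 1 exon on the minus strand of chromosome 13 (GRCm39, 23945836 to 23946369). Its level was 3.15, 3.78, 4.28 and 3.12 CPM in WT1 to WT4 and 1.31, 2.13, 2.33 and 2.44 in KO1 to KO4, so every KO library lay below every WT library. The mean was 3.58 ± 0.556 in WT and 2.05 ± 0.514 in KO (SD, n = 4 each), a log2 fold change of −0.80 ± 0.249 (SE). The unadjusted p was 0.0047 and the adjusted p 0.226 in edgeR's test, so it did not pass. Since its values in these libraries were known beforehand, its direction here is not independent evidence. The counts behind it were 44 to 61 in WT and 18 to 36 in KO, of which 6 of 8 were not whole, and 58.9% of its 31-mers lie elsewhere, most of them in H3c10. The other 10 H3 genes together had 22.9 ± 4.77 CPM in WT and 22.6 ± 2.78 in KO, a log2 ratio of −0.01. The KO minus WT difference of the H3 class means was −1.74 CPM, of which −1.53 lay in H3c1.

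H4c17 showed the steepest fold change, and its near-identical neighbour showed the opposite sign. H4c17 (chromosome 13, 21995916 to 21996317, plus strand) had 18, 11, 13 and 17 estimated counts in WT1 to WT4 and 10, 0, 6 and 0 in KO1 to KO4. All KO libraries lay below all WT libraries, with a log2 fold change of −1.86 ± 0.635 (SE) and an adjusted p of 0.295 in edgeR's test. H4c18, 20 kb away on the minus strand, holds 91.7% of the 31-mers of H4c17. It had 0.89, 2.11, 2.17 and 1.27 CPM in WT and 2.54, 1.76, 2.33 and 1.70 in KO, a log2 fold change of 0.36 ± 0.316 (SE). Counted together, the pair had 2.12, 2.91, 3.08 and 2.48 CPM in WT and 3.27, 1.76, 2.78 and 1.70 in KO. The pair overlapped between genotypes, with a log2 fold change of −0.17 ± 0.271 (SE) and an adjusted p of 0.917 in edgeR's test. In KO2 and KO4, where H4c17 had 0 counts, the pair lay below every WT library. In KO1 it lay above every WT library, and in KO3 among them. A lower level in every KO library was therefore not seen in the pair.

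Libraries of the same genotype also differed in how counts were divided within a pair. H2ac18 and H2ac19, 5.75 kb apart on chromosome 3, share 89.6% or more of their 31-mers. H2ac18 was listed at 0 in WT3 and WT4, where H2ac19 had 80 and 52 counts, and at 20 and 27 counts in WT1 and WT2, where H2ac19 had 33 and 20. Their sum was 4.07 ± 1.03 CPM in WT and 4.39 ± 0.471 in KO (SD, n = 4 each). The sums of H2ac23 with H2ac24, H2bc23 with H2bc24 and H3c10 with H3c11, the other pairs in which each gene holds at least 80% of the other's 31-mers, had log2 fold changes of 0.24, −0.18 and −0.02 and adjusted p-values of 0.782, 0.919 and 0.988 in edgeR's test.

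H2bc11, the most abundant H2B gene, had 8.63, 8.66, 11.1 and 8.57 CPM in WT1 to WT4 and 5.81, 7.46, 8.87 and 7.06 in KO1 to KO4. The groups overlapped, since KO3 lay above 3 of the WT libraries. Its log2 fold change was −0.34 ± 0.15 (SE), and the unadjusted p was 0.0359 and the adjusted p 0.496 in edgeR's test. The other 12 H2B genes summed to 19.6 ± 1.81 CPM in WT and 19.7 ± 2.45 in KO (SD, n = 4 each). H2bc12, next in abundance, had 6.71, 5.89, 7.50 and 6.59 in WT and 5.01, 6.08, 8.42 and 5.77 in KO, with a log2 fold change of −0.08.

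The other leading genes of each class overlapped between genotypes. H4c9, the replication-dependent gene of highest mean CPM, had 10.0, 11.3, 12.1 and 8.36 CPM in WT1 to WT4. In KO1 to KO4 it had 9.44, 12.1, 12 and 11.3, a log2 fold change of 0.10 ± 0.133 (SE). H4c2 had 3.08, 2.18, 4.07 and 2.62 in WT and 1.96, 2.63, 2.78 and 1.90 in KO, a log2 fold change of −0.37 ± 0.259 (SE). These genes differed in sign, and neither passed the test. H3c3, the leading H3 gene, had 8.35, 11.9, 12.5 and 8.43 in WT and 8.42, 9.90, 10.7 and 8.08 in KO, a log2 fold change of −0.15. In this gene WT2 and WT3 stood above WT1 and WT4 as in the H3 sum.

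Among the H2A genes, H2ac11 had 8.01, 6.91, 8.41 and 5.95 CPM in WT1 to WT4 and 6.82, 8.21, 5.94 and 4.21 in KO1 to KO4, a log2 fold change of −0.21. H2ac8 had 4.24, 3.64, 5.89 and 6.37 in WT and 4.14, 3.95, 4.81 and 4.21 in KO, a log2 fold change of −0.24. Both ranges overlapped, and the lowest of the 8 libraries was KO4 for H2ac11 and WT2 for H2ac8. In H1, whose genes share little sequence with other places although an end of H1f4 overlaps H2bc6, H1f2 had 4.45, 3.35, 6.38 and 5.59 in WT and 5.23, 4.58, 5.86 and 6.79 in KO, a log2 fold change of 0.18. H1f4 had 2.81, 2.04, 2.80 and 2.62 in WT and 2.32, 3.32, 2.78 and 2.99 in KO, a log2 fold change of 0.15. H1f1 was the lone H1 gene below 0, at −0.54 ± 0.415 (SE).

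All 4 libraries of a genotype lay on the same side of the other 4 in 2 of the 43 tested genes, H3c1 and H4c17, both lower in KO (4.65%, against 2.63% of all tested genes in that direction), and in 0 in the other direction (2.25% of all tested genes). Of the 12 untested genes, H4c3 and H2ac12 did so. The shares of all tested genes do not cover such genes, and no share was computed over the untested genes of the table. H4c3 had 10, 16, 15 and 17 counts in WT and 7, 10, 4 and 9 in KO. H2ac12 went the other way, with 2, 0, 4 and 0 counts in WT and 10, 5, 12 and 17 in KO. Counts this low leave wide counting error, and H2ac18 above was listed at 0 where its near-identical copy had 52 and 80 counts. H2ac12 shares 91.2% of its 31-mers with other places, chiefly H2ac7. Apart from H4c17, H3c1 and H1f1, the tested genes had edgeR log2 fold changes between −0.42 in H2ac4 and 0.68 in H2ac18.

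**Figure D5:**
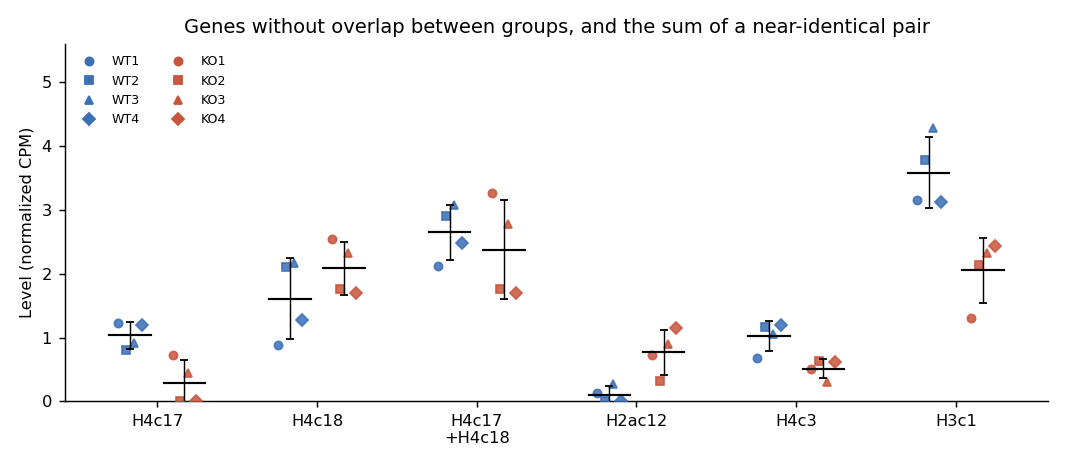
Level in normalized CPM of H4c17, H4c18 and their sum, and of the other genes whose WT (blue) and KO (red) libraries did not overlap, with a marker shape for each replicate number and the mean and SD of 4 libraries as lines and bars. H4c17 is lower in every KO library, its sum with H4c18 overlaps, and H2ac12 stays below 1.2 CPM throughout.

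None of the listed genes whose products act on histone RNA or on histones passed the adjusted test. Of 22 tested genes for 3′ processing of histone RNA, 1 was lower and 1 higher in KO at an unadjusted p below 0.05 and 0 passed adjustment. The background at the unadjusted level, for this list and those below, was 4.91% of all tested genes lower and 4.38% higher. Slbp, which encodes the stem-loop binding protein, had 169, 175, 183 and 181 CPM in WT1 to WT4 and 165, 173, 162 and 165 in KO1 to KO4. The ranges overlapped, with a log2 fold change of −0.09. In edgeR's test its p was 0.537 when adjusted and 0.0489 unadjusted. Zfp473, whose human counterpart encodes a U7 snRNP-associated zinc finger protein, had 5.55, 5.09, 5.19 and 4.18 in WT and 5.88, 7.65, 8.12 and 7.13 in KO. Its KO libraries all lay above its WT libraries, with a log2 fold change of 0.52. In edgeR's test its p was 0.223 when adjusted and 0.00455 unadjusted.

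Of 17 tested genes for transcription of histone genes, 1 was lower at an unadjusted p below 0.05, the general factor Tbp, with a log2 fold change of −0.14 and an adjusted p of 0.515 in edgeR's test. Npat, the coactivator of histone gene transcription, had 79.0, 77.0, 76.7 and 70.5 CPM in WT and 78.3, 76.4, 71.0 and 80.7 in KO, a log2 fold change of 0.02. Pou2af1, a coactivator of the Oct factors, had the smallest p of those higher in KO, at 0.32 with an adjusted p of 0.794 in edgeR's test. Of 17 genes for decay of histone RNA, 0 passed either level, and those of smallest p were Lsm4 at −0.08 and Lsm2 at 0.08, both parts of Lsm rings. Of 27 histone chaperones and importers, Asf1b, an H3 and H4 chaperone of S phase, was at −0.13 and Npm1, a nucleolar chaperone, at 0.13, with adjusted p-values of 0.487 and 0.415 in edgeR's test. Of 11 replacement histones, H1f0 was at −0.13 with an adjusted p of 0.499 in edgeR's test and was the only gene of the list with an unadjusted p below 0.05, while H2aj, at 0.07, had the smallest p of those higher in KO.

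Cell cycle genes overlapped in sum. The 34 S phase markers, which include Slbp, summed to 7343, 7437, 7572 and 7396 CPM in WT1 to WT4 and to 7317, 7467, 7332 and 7262 in KO1 to KO4. Slbp was the only member with an unadjusted p below 0.05, and Dut, at 0.05, had the smallest p of those higher in KO. Of 22 G2M markers 0 reached that level, and the extremes by p were Cdc20 at −0.07 and Hmmr at 0.07. The sums of both lists overlapped between genotypes. The S phase sum was highest in the library labelled WT3, as the histone sums were.

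The libraries held 13258239 to 16001676 counts, and their scaling factors lay between 0.993 and 1. Of 4 libraries a group, no pair within a group was a duplicate of another, with a chi-square per degree of freedom of 2.59 to 6.18 between their counts. Of 8 tested T cell markers 3 were lower in KO at an unadjusted p below 0.05, and Thy1, a T cell surface protein, passed adjustment at −0.26 with an adjusted p of 0.0439 in edgeR's test. Of 6 Treg markers 3 were lower at the unadjusted level, Il2ra, Foxp3 and Ikzf2, and the sum of each of these lists was lower in every KO library than in every WT library. At the unadjusted level 4.91% of all tested genes were lower in KO. Foxp3 had a log2 fold change of −0.31 and an adjusted p of 0.152 in edgeR's test. Of 3 tested CD8 T cell markers 2 were lower in KO at an unadjusted p below 0.05 in edgeR's test, and 0 passed adjustment. The sum of this list, highest in WT3, overlapped between genotypes. Markers of B, NK, myeloid and erythroid cells summed to at most 3.71 CPM in any library. The part of these marker differences in the histone values was not tested.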

How the data were processed

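The estimated counts were deposited by the authors as a gene table without normalization: per the labels and the methods, reads of ribosomal RNA-depleted libraries were aligned to GRCm39 with STAR 2.7.8a, quantified with the Partek E/M algorithm and filtered. Read depth, strandedness and annotation version are not given in the sources used here. Groups were taken from the genotype labels, with 4 libraries each. The methods describe independent mice for 3 replicates a group, and the labels do not tie the 4 libraries to mice, so p-values measure only the spread between these libraries.

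Estimated counts were rounded, scaled by TMM and tested in edgeR 4.0.16 (R 4.3.3) with the quasi-likelihood F-test (two-sided), for genotype only, on all 11317 of 11911 genes kept by filterByExpr with a minimum count of 10, with Benjamini-Hochberg adjustment. The test was checked on simulated data with known changes. The changed genes were drawn at random from all genes kept, so the check does not measure what could be detected at the low counts of the histone genes. Class sums are descriptions. Stem-loops and 31-mers were read from GRCm39 with GENCODE vM39. DESeq2 1.42.0, limma 3.58.1, other scaling, filters and left-out libraries were alternatives. Values in all libraries are given for the 2 most abundant tested genes of each class, those with p below 0.05 and those without overlap between groups, and for Slbp, Npat and Zfp473. Of the other histone and cell cycle lists, the gene of smallest p in each direction is named with its log2 fold change. The genes, lists and this rule were chosen with earlier results of these data known.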

Additional observations from a re-analysis of the deposited data

Results flagged for a closer look

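H2bc11 in the library labelled WT3 was the only value set apart from its group, among 38 groups of 4 libraries examined by Dixon's criterion, by which chance alone marks about 1 group in 20. The level there was 11.1 CPM, while the other 3 WT libraries lay at 8.57, 8.63 and 8.66, so that the gap to the nearest library made up 0.965 of the group's whole range, above the criterion's 95% limit for 4 samples. Without this library the log2 fold change of H2bc11 was −0.24 in place of −0.34. Its unadjusted p in edgeR's test was then no longer below 0.05 (adjusted p 0.656). The same held without KO replicate 1 and without KO replicate 4, with adjusted p-values of 0.897 and 0.824 in edgeR's test.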

How the results depend on the processing

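Of 310 alternative values, 304 kept their direction or moved by less than the spread between libraries. The number of histone genes with an adjusted p below 0.05 was 0 in every alternative except without KO replicate 2, where it was 1 of 46 tested, H2ac12 (log2 fold change 3.03, edgeR adjusted p 0.0318). H2ac12 had too few counts to be tested with all 8 libraries, and over the alternatives that tested it and gave an unadjusted p below 0.05 its adjusted p ran from 0.0318 to 0.300. The number at an unadjusted p below 0.05, 3 with all libraries, was 5 with no filter on low counts and 3 to 5 with 1 library left out, the 5 being reached without WT replicate 1 and without KO replicate 2, where H2ac12 and H4c3 entered the test. Leaving out 1 library gave log2 ratios of −0.12 to 0.04 for all 55 genes, 0.02 to 0.26 for H1, −0.10 to 0.07 for H2A, −0.19 to −0.02 for H2B, −0.18 to 0 for H3 and −0.16 to −0.01 for H4. With only the genes that have at most 50% of 31-mers elsewhere, an alternative chosen after seeing the data, the log2 ratio of H2B was 0.13 over 6 genes in place of −0.09, H2bc11 being among those left out, and that of all classes was 0.02 over 21 genes. The log2 fold change of H2bc12 was −0.24 to 0.01 with 1 library left out in place of −0.08, the sign turning without KO replicate 1. That of H4c17 ran from −2.91 with limma voom to −0.17 when it was summed with H4c18, with adjusted p-values of 0.108 to 0.917. Same-numbered libraries did not deviate together (correlations of −0.046, 0.004, −0.042 and 0.069), and with the replicate block 0 genes had an adjusted p below 0.05 and 3 an unadjusted one, as without it.

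Depth limits these values most in the low genes: 12 of the 55 had too few counts to be tested, and standard errors reached 0.699. Only the listed genes were counted, so a histone gene below the authors' filter is not analysed here.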

Other observations

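Along chromosome 13 the tested genes at the far end of the largest cluster, H1f1, H3c1, H4c2 and H2ac4, which lie side by side apart from H3c2 and the untested H4c1, had log2 fold changes of −0.54, −0.80, −0.37 and −0.42, while H3c2 had 0.10. The stretch was noticed after its values were seen, so these are values only, and 3 of the 4 had adjusted p-values of 0.759 to 0.820 in edgeR's test.

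Non-whole counts were not confined to genes that resemble one another. Among the 10 histone genes with at most 15% of their 31-mers elsewhere, 37.5% of values were more than 0.01 from a whole number. Apart from 1 value of H1f2, all of these lay in H1f4, H2bc6, H2ac6 and H2ac25, with 8, 7, 8 and 6 such values. H1f4 overlaps H2bc6, and H2ac6 overlaps H2bc4 in the longer models. None of the 9 tested genes among the 10 had an unadjusted p below 0.05 (edgeR). Their log2 fold changes ran from −0.54 in H1f1 to 0.30 in H1f5.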
